A study of Mus musculus with 7 samples.

Results

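The Nogo receptor complex genes are 8 genes of the Nogo pathway, and all of them were read out of the 46333 genes counted in neurons isolated from mouse brain. The list was chosen by 1 measured value, the low level of Rtn4rl2 in SynCre + IL-4R fl/fl neurons, and it was completed with ligands, receptors and co-receptors of the same pathway, Rtn4, Rtn4r, Rtn4rl1, Lingo1, Lingo2, Tnfrsf19 and Omg. All 8 members passed the filter on low counts and belonged to the 21542 genes tested. Because the list was drawn up from the comparison of the genotypes, the values of its members are given as a description. Where a test called members, the calls are printed too, and no support is drawn from them.

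RNA sequencing was carried out on neurons of 3 SynCre + IL-4R fl/fl mice (SynCre+) and of 4 SynCre - IL-4R fl/fl littermates (SynCre-). All 7 animals carried the floxed allele of the IL-4 receptor, and only the SynCre+ animals also carried Cre recombinase driven by the synapsin promoter of neurons, so that cells of other types keep the receptor in both genotypes. The animals were untreated adults, and the ages given for them in the legend and in the methods of the study are not the same. Whole brains were dissociated, and cells other than neurons were removed with antibodies to microglia, oligodendrocytes and astrocytes, a mixture that does not name endothelium. The study checked the purity of its isolates by flow cytometry, with an endothelial antibody among those used, and reported that neurons were highly enriched. Each library was sequenced deeply, with 68213223 to 94376841 counts over all genes.

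Nogo (Rtn4) is a reticulon of the endoplasmic reticulum and the cell surface that is made by oligodendrocytes and by many neurons, and it is best known for its restraint of axon growth and plasticity in the adult central nervous system. Its surface loop binds the Nogo receptor (Rtn4r), a protein with leucine-rich repeats that is held to the outer membrane by a lipid anchor and therefore needs partners to signal. LINGO1 together with p75 (Ngfr) or its relative TROY (Tnfrsf19) provides that link, and the complex activates the small GTPase RhoA and its kinases, which collapse the growth cone.

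For 6 of the 8 members the RefSeq promoter table of build GRCm38.p6 held an entry, with 11 start sites among them, while Rtn4rl1 and Omg had none. The 250 bases before the start site of Rtn4rl2 and of the 2 start sites of Tnfrsf19 are shown. These were the members that DESeq2 called, and Rtn4rl2 was the gene that chose the list, so the choice of windows is no result. Capitals mark each GC box, searched as GGGCGG on both strands. The Rtn4rl2 window lies on the minus strand at chr2:84886693-84886942, and those of Tnfrsf19 lie on the minus strand at chr14:61046856-61047105 and chr14:61037988-61038237. All are written 5′ to 3′.
Rtn4rl2: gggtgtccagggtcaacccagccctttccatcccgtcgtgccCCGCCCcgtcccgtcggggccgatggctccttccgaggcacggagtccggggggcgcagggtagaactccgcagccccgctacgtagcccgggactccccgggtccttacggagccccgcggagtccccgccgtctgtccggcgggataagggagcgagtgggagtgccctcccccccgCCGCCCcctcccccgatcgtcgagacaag
Tnfrsf19, upstream start: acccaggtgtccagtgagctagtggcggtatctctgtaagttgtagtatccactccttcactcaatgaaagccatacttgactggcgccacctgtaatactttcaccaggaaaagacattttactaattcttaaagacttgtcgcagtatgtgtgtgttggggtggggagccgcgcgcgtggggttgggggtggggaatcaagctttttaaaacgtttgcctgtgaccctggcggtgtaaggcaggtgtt
Tnfrsf19, downstream start: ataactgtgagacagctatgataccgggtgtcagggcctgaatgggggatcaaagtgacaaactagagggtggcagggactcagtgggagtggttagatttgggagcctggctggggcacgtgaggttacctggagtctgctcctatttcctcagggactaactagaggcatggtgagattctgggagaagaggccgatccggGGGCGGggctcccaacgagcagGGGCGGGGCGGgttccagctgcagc

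The Rtn4rl2 window was rich in G and C, at 73.6% against a median of 52.4% over the 32851 windows of the table, and it held 29 CpG dinucleotides, a count above that of 93.2% of all windows. This was not particular to Rtn4rl2, since windows of Rtn4r (98.1%), Lingo1 (94.8%) and Rtn4 (94.8%) ranked higher. It held 2 GC boxes, a motif found in 32.7% of all windows. The upstream Tnfrsf19 window had 50% G and C with 9 CpG and no GC box, whereas the downstream one had 59.2% with 8 CpG and 3 GC boxes, of which 2 overlap. STAT6, the factor activated by the IL-4 receptor, prefers TTCNNNNGAA, and this palindrome was in none of these 3 windows and in 5.85% of all windows. The shorter STAT palindrome TTCNNNGAA, found in 7.02% of all windows, was also absent from the 3 windows, as were CCAAT (33.8% of all windows, both strands) and TATAAA (12.4%, both strands). Among the member windows not shown, one of Lingo1 held the shorter STAT palindrome, and CCAAT was found in windows of Lingo2 and Rtn4. A motif is a match of letters and does not show that a factor binds there.

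The targeted gene was looked at first. Il4ra, the alpha chain of the IL-4 receptor, was at 29.5, 28.7 and 24.4 CPM (the count relative to the library size, scaled by TMM factors) in the SynCre+ libraries and at 20.0, 23.2, 29.6 and 22.4 CPM in the SynCre- libraries. The ranges overlapped. The count covers the whole gene and does not separate the floxed exons from the others, and cells without Cre also contribute to it, so that it does not check the deletion.

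Marker levels of several cell types differed between the genotypes. All 14 neuron markers had a negative log2 fold change, with summed levels of 1540.0 to 2690 CPM in SynCre+ and 2636 to 3802 CPM in SynCre- libraries, and none of them was at 0 in any library. All 12 endothelial markers had a positive one, with summed levels of 13971 to 20354 CPM in SynCre+ and 9225 to 12839 CPM in SynCre- libraries, again with none at 0. All 7 markers of immature neurons had a negative log2 fold change, with sums of 1581 to 2233 CPM in SynCre+ and 2482 to 2698 CPM in SynCre- libraries. The 9 lists of cell types other than neurons all had a positive median log2 fold change, between 0.18 and 1.05. The sums still overlapped for oligodendrocytes, their precursors, astrocytes, choroid plexus and microglia. For microglia they were 666 to 1044 CPM in SynCre+ and 169 to 1563 CPM in SynCre- libraries. SynCre+ replicate 1 stood apart, with the lowest neuron and the highest endothelial sum of all 7 libraries. In such bulk samples, fewer cells of a type and less RNA per cell cannot be told apart.

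Of the 8 members, 7 had a negative log2 fold change and 1 a positive one, with a median of -0.65 against -0.04 over all tested genes. Without Rtn4rl2, whose low level chose the list, the median of the other 7 was -0.45. The quasi-likelihood test of edgeR called no member at an adjusted p of 0.05, and it called 0% of all tested genes. At an unadjusted p under 0.05 it took 1 member lower, Rtn4rl2, and 1 higher, Tnfrsf19, beside 20% of all genes (9.75% lower and 10.2% higher). DESeq2, the test used by the study, called the same 2 members, Rtn4rl2 lower and Tnfrsf19 higher, beside 12.2% of the 16345 genes to which it gave an adjusted p (5.48% lower and 6.7% higher). The levels did not overlap between genotypes for 3 members that were lower in SynCre+, Rtn4rl2, Rtn4r and Lingo1, and for 1 that was higher, Tnfrsf19. Over all tested genes 18.7% did not overlap, 9.72% lower and 8.94% higher. Since Rtn4rl2 chose the list and all these counts come from the same contrast, nothing is read from them.

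**Figure D1:**
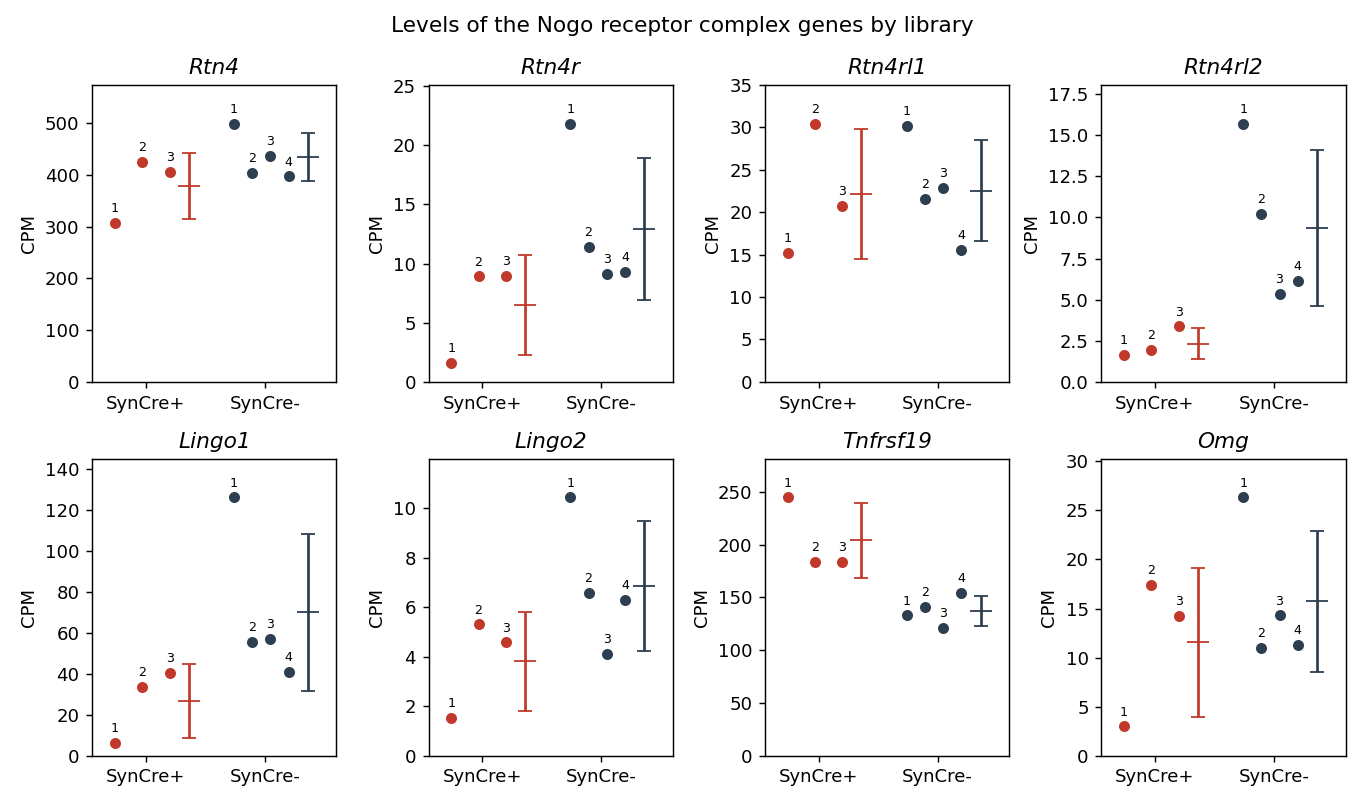
Level of each of the 8 genes in CPM (vertical axis, from 0) in the 3 SynCre+ libraries (red, left) and the 4 SynCre- libraries (dark, right), with the replicate number over each point and the mean ± SD beside the points. SynCre+ replicate 1 is the lowest of all 7 libraries for 7 of the 8 genes and the highest for Tnfrsf19.

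Among the receptors, Rtn4rl2 showed the lowest ratio between genotypes. It encodes NgR2, a homolog of the Nogo receptor that binds the myelin-associated glycoprotein MAG. The gene lies on chromosome 2 at 84702268 to 84717054 (GRCm39, minus strand) and had 143, 145 and 251 counts in the SynCre+ libraries, against 1385, 858, 384 and 495 in the SynCre- libraries. This corresponds to 1.62, 1.97 and 3.38 CPM in SynCre+ neurons and to 15.7, 10.2, 5.34 and 6.16 CPM in SynCre- neurons. All 3 SynCre+ libraries were below all 4 SynCre- libraries, and the SynCre- libraries themselves spread over a 2.94-fold range. The means were 2.32 ± 0.933 CPM in SynCre+ (SD, n = 3) and 9.35 ± 4.74 CPM in SynCre- (SD, n = 4), a ratio of 0.248, with a fitted log2 fold change of -2.01 ± 0.45 (SE). Of all tested genes, 2.19% had a lower fold change. Because the low level of Rtn4rl2 chose the list, this rank is a description and no support. Without SynCre+ replicate 1 the log2 fold change was -1.81 ± 0.50.

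Rtn4r, the Nogo receptor NgR1 itself, is on chromosome 16 at 17945506 to 17970272 (plus strand). Its levels were 1.64, 8.91 and 8.94 CPM in SynCre+ and 21.8, 11.4, 9.15 and 9.30 CPM in SynCre- neurons. The genotypes were separated only by the small step between 8.94 and 9.15 CPM, and most of the difference came from 1 low SynCre+ library and 1 high SynCre- library. The means were 6.49 ± 4.21 CPM (SD, n = 3) in SynCre+ and 12.9 ± 6.02 CPM (SD, n = 4) in SynCre- neurons. The log2 fold change was -0.99 ± 0.57 (SE), and -0.54 ± 0.37 without SynCre+ replicate 1.

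Rtn4rl1 encodes NgR3, which with NgR1 binds chondroitin sulfate proteoglycans of the extracellular matrix. The gene is on chromosome 11 at 75084609 to 75158595 (plus strand). SynCre+ libraries had 15.2, 30.4 and 20.8 CPM, and SynCre- libraries had 30.2, 21.6, 22.9 and 15.6 CPM. These ranges were nearly the same, with means of 22.1 ± 7.70 CPM in SynCre+ (SD, n = 3) and 22.6 ± 5.99 CPM in SynCre- (SD, n = 4). The log2 fold change of -0.03 ± 0.27 (SE) was smaller than its error, and it was 0.18 ± 0.26 without SynCre+ replicate 1.

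The 3 receptor genes were then set against each other per length, in CPM per kilobase of annotated exon. NgR2 made up 16.4%, 7.97% and 15.3% of the sum of the 3 in SynCre+ libraries and 29.8%, 31.9%, 21.2% and 26.7% in SynCre- libraries, on average 13.2 ± 4.60% (SD, n = 3) and 27.4 ± 4.63% (SD, n = 4). The share of NgR3 was 65.0%, 51.8% and 39.6% in SynCre+ and 24.1%, 28.3%, 38.2% and 28.4% in SynCre- libraries, so that the ranges did not overlap, by a narrow step. NgR1 took 18.5% to 45.1% in SynCre+ and 39.8% to 46.1% in SynCre- libraries, with overlap. These shares contain the value that chose the list, and a lower share of NgR2 raises the other shares, while the level of Rtn4rl1 itself was close to equal in the genotypes. They are a description and have no test.

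**Figure D2:**
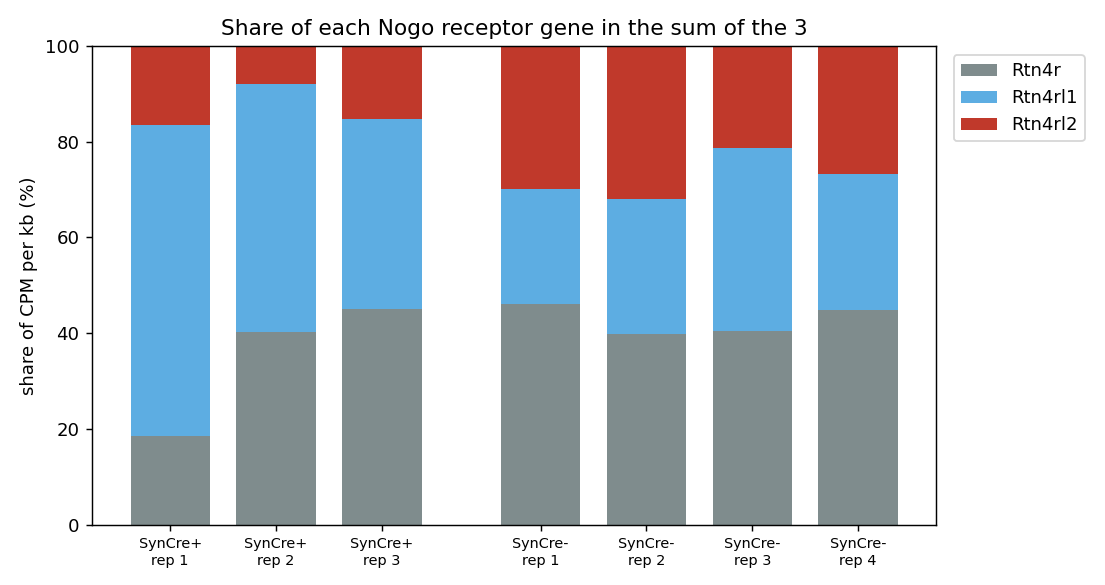
Share of Rtn4r (grey), Rtn4rl1 (blue) and Rtn4rl2 (red) in the sum of their CPM per kilobase (vertical axis, percent) in each library, with the 3 SynCre+ libraries on the left and the 4 SynCre- libraries on the right. The red share is 7.97% to 16.4% in SynCre+ and 21.2% to 31.9% in SynCre- libraries.

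Of the co-receptors, Lingo1 encodes LINGO1, the transmembrane partner with leucine-rich repeats that holds the signaling complex together, and it is made mainly by neurons and by oligodendrocytes. It lies on chromosome 9 at 56525759 to 56703752 (minus strand). SynCre+ libraries had 6.40, 33.8 and 40.2 CPM, and SynCre- libraries had 126, 55.6, 57.1 and 40.9 CPM. The highest SynCre+ library and the lowest SynCre- library were close to each other, and SynCre+ replicate 1 was far below the remaining libraries. Means of 26.8 ± 18.0 CPM (SD, n = 3) in SynCre+ and 69.9 ± 38.2 CPM (SD, n = 4) in SynCre- neurons gave a log2 fold change of -1.38 ± 0.61 (SE), which was -0.92 ± 0.42 without that library.

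Lingo2 encodes a homolog of LINGO1 and spans a long stretch of chromosome 4, from 35706647 to 36951747 (minus strand). It was read at 1.54, 5.30 and 4.58 CPM in SynCre+ and at 10.4, 6.58, 4.12 and 6.28 CPM in SynCre- neurons. The ranges overlapped, and only leaving out SynCre- replicate 3 separated them. The log2 fold change was -0.85 ± 0.46 (SE), and -0.48 ± 0.36 without SynCre+ replicate 1.

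Tnfrsf19 encodes TROY, a receptor of the TNF receptor family that can take the place of p75 in the complex and that is also present in brain endothelium. It is on chromosome 14 at 61201324 to 61283939 (minus strand). Its levels were 245, 183 and 184 CPM in SynCre+ and 133, 141, 121 and 154 CPM in SynCre- libraries. It was the only member whose SynCre+ libraries all lay above the SynCre- libraries. The means were 204 ± 35.3 CPM in SynCre+ (SD, n = 3) and 137 ± 14.1 CPM in SynCre- (SD, n = 4), a ratio of 1.49 and a log2 fold change of 0.57 ± 0.14 (SE). It was 0.42 ± 0.12 without SynCre+ replicate 1, and DESeq2 no longer called the gene without that library or without SynCre- replicate 3. Both Tnfrsf19 and the summed endothelial markers were highest in SynCre+ replicate 1 among the SynCre+ libraries and in replicate 4 among the SynCre- libraries. The remaining libraries of each genotype did not follow the same order. SynCre- replicate 2, at 141 CPM of Tnfrsf19, had the lowest endothelial sum, 9225 CPM. A link between the levels was not tested.

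Turning to the ligands, Rtn4 gives rise to the Nogo proteins and is on chromosome 11 at 29642947 to 29694331 (plus strand). SynCre+ libraries had 307, 424 and 405 CPM, and SynCre- libraries had 499, 404, 436 and 397 CPM. SynCre+ replicate 1 was the lowest, and the other 2 SynCre+ libraries lay within the SynCre- range. The mean was 379 ± 63.1 CPM in SynCre+ (SD, n = 3) and 434 ± 46.5 CPM in SynCre- (SD, n = 4), with a log2 fold change of -0.20 ± 0.15 (SE) that came to -0.07 ± 0.14 without this library. The counts are summed over the transcripts of the gene, so that Nogo-A and the shorter forms were not separated.

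Omg encodes the oligodendrocyte myelin glycoprotein, a lipid-anchored ligand of the Nogo receptor that neurons make as well. It is a small gene on chromosome 11 at 79391808 to 79394910 (minus strand), inside Nf1 and on its opposite strand. Omg was at 2.98, 17.4 and 14.3 CPM in SynCre+ and at 26.3, 11.0, 14.3 and 11.3 CPM in SynCre- libraries. The ranges overlapped widely and the log2 fold change of -0.45 ± 0.55 (SE) was smaller than its error. It was 0.00 ± 0.35 without SynCre+ replicate 1. Mag, the other myelin ligand of these receptors, also overlapped, with 32.0, 105 and 102 CPM in SynCre+ and 125, 41.8, 60.9 and 54.8 CPM in SynCre- libraries. The 9 oligodendrocyte markers summed to 984 to 2261 CPM in SynCre+ and to 829 to 1480 CPM in SynCre- libraries, with none at 0.

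Across the members, SynCre+ replicate 1 had the lowest level of all 7 libraries for every gene other than Tnfrsf19, for which it had the highest. SynCre- replicate 1 had the highest level for 6 members, Rtn4, Rtn4r, Rtn4rl2, Lingo1, Lingo2 and Omg. Its neuron markers were also the highest of the 7 libraries, with a sum of 3802 CPM. The spread within a genotype was large for the receptors and LINGO genes and small for Rtn4 and Tnfrsf19. The coefficient of variation was 64.7% in SynCre+ and 46.6% in SynCre- libraries for Rtn4r, against 17.3% in SynCre+ and 10.3% in SynCre- libraries for Tnfrsf19.

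Per length, Rtn4 was the most abundant member, with 48.2 ± 8.04 CPM per kilobase in SynCre+ (SD, n = 3) and 55.2 ± 5.92 in SynCre- (SD, n = 4). Tnfrsf19 followed with 27.4 ± 4.73 CPM per kilobase in SynCre+ and 18.4 ± 1.90 in SynCre- neurons. These genes held the first and the second place in all 7 libraries, and Lingo2 held the last, with 0.305 ± 0.160 CPM per kilobase in SynCre+ and 0.549 ± 0.210 in SynCre- neurons. The 5 genes between them changed places from library to library. By their mean over all libraries the order was Lingo1, Rtn4r, Omg, Rtn4rl1 and Rtn4rl2. Within each genotype the ranges of neighbours in this order overlapped, except for Rtn4rl1 and Rtn4rl2 in SynCre+. There Rtn4rl1 was at 2.51 to 5.02 and Rtn4rl2 at 0.634 to 1.33 CPM per kilobase. Rtn4rl2 had rank 7 in all 3 SynCre+ libraries, and ranks 6, 5, 7 and 7 in SynCre- replicates 1 to 4. It had 0.910 ± 0.366 CPM per kilobase in SynCre+ libraries, against 3.65 ± 1.27 for Rtn4rl1. In SynCre- libraries it had 3.67 ± 1.86, a level close to the 3.72 ± 0.987 of Rtn4rl1.

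The levels were next set against the markers within each library, as log2 CPM minus the mean log2 CPM of the 14 neuron markers. Rtn4rl2 was at -5.52, -6.06 and -5.45 in SynCre+ and at -3.90, -4.04, -5.17 and -4.56 in SynCre- libraries. The ranges did not overlap, with a difference of -1.26 between the means. Lingo1 was lower by a difference of -0.95, with the highest SynCre+ library at -1.89 and the lowest SynCre- library at -1.83. Rtn4r (-0.57), Lingo2 (-0.27) and Omg (-0.02) overlapped on this scale. Rtn4rl1 (0.63), Rtn4 (0.47) and Tnfrsf19 (1.24) were higher without overlap, for Rtn4 by a very small step. On the corresponding scale of the 12 endothelial markers, Tnfrsf19 was at -2.39 to -2.25 in SynCre+ and at -2.38 to -2.02 in SynCre- libraries, so that the ranges overlapped and the means differed by -0.08. The other 7 members were all lower on the endothelial scale, Rtn4rl2 (-2.58), Lingo1 (-2.28), Rtn4r (-1.89), Lingo2 (-1.60) and Rtn4 (-0.85) without overlap, and Omg (-1.35) and Rtn4rl1 (-0.69) with overlap. Relative to the 9 oligodendrocyte markers, Rtn4 (-0.83) and Rtn4rl1 (-0.67) were lower with overlap. The direction of Rtn4 and Rtn4rl1 thus turned with the markers chosen.

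**Figure D3:**
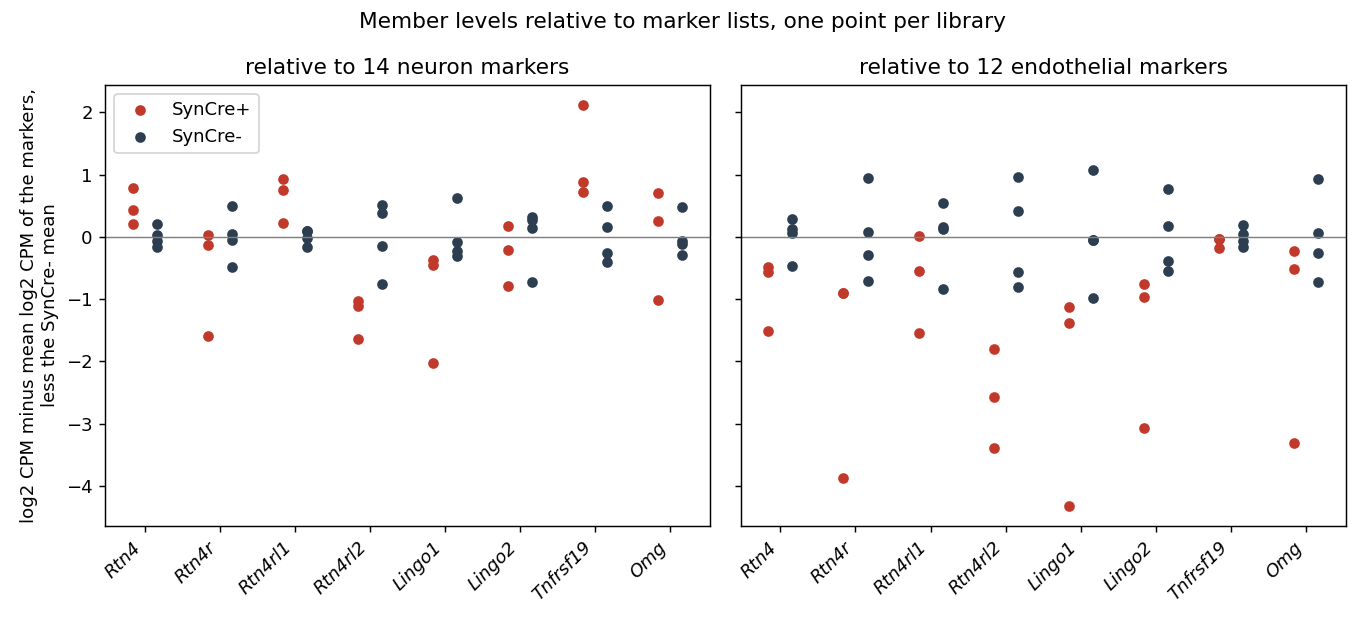
Each point is 1 library, red for SynCre+ and dark for SynCre-. The vertical axis gives log2 CPM of the gene minus the mean log2 CPM of 14 neuron markers (left panel) or 12 endothelial markers (right panel), shifted so that the SynCre- mean is 0. Rtn4rl2 is lower in SynCre+ in both panels, Tnfrsf19 is higher against the neuron markers and overlaps against the endothelial markers, and Rtn4 is higher in the left panel and lower in the right one.

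The mean marker level was also entered in the edgeR fit as a covariate, and for several members this gave another sign than the ratio to the markers. With the neuron markers, Rtn4rl2 had a log2 fold change of -1.25 ± 0.48 (SE), and with the endothelial markers -1.10 ± 0.66 (SE). Lingo1, lower relative to the neuron markers, came to 0.12 ± 0.20 with them as covariate and 0.44 ± 0.64 with the endothelial markers. Tnfrsf19 came to 0.28 ± 0.13 with the neuron markers and 0.15 ± 0.16 with the endothelial markers. DESeq2 called neither Rtn4rl2 nor Tnfrsf19 with either covariate. Since marker level and genotype moved together over the 7 libraries, these fits cannot separate them.

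**Figure D4:**
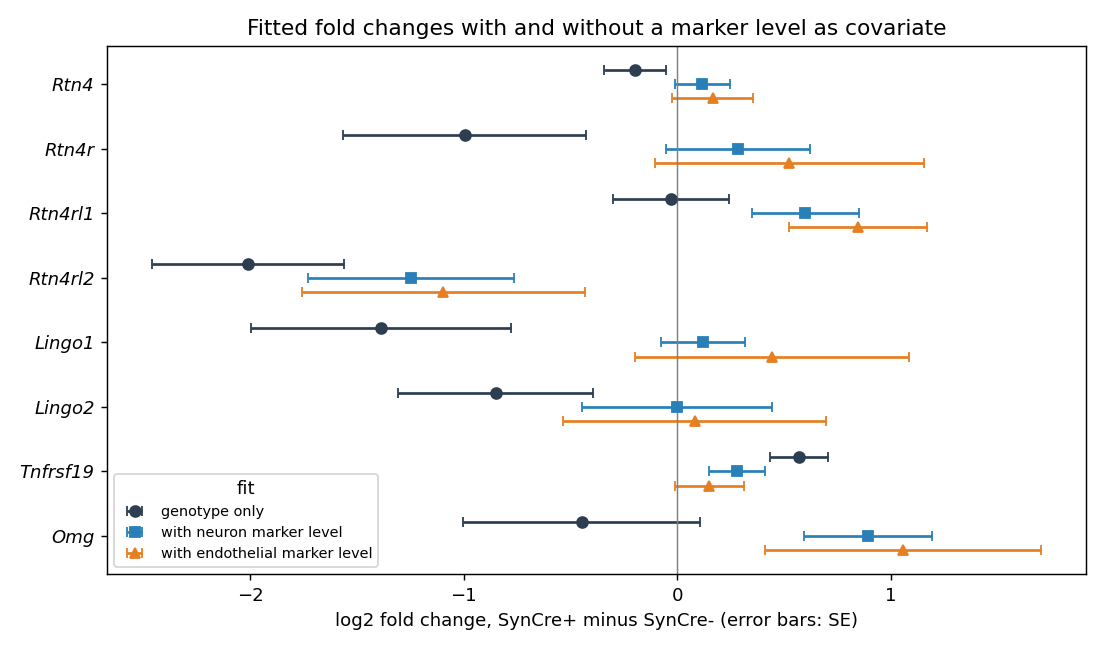
Fitted log2 fold change of each gene, SynCre+ minus SynCre- (horizontal axis, bars show SE), with genotype alone (dark circles), with the neuron marker level (blue squares) and with the endothelial marker level (orange triangles) as a covariate. The values of Rtn4rl2 in the 3 fits are -2.01, -1.25 and -1.10, and those of Lingo1 are -1.38, 0.12 and 0.44.

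Reads shared with other genes could change some of these counts, since no source used here states whether counting used strand. Nf1, which contains Omg, was at 55.8 ± 7.33 CPM in SynCre+ (SD, n = 3) and 60.1 ± 4.31 CPM in SynCre- (SD, n = 4), with a log2 fold change of -0.11 ± 0.12 (SE). Eml6 overlaps the end of Rtn4 on the other strand, and it was at 21.4 ± 0.986 CPM in SynCre+ and 21.7 ± 3.19 CPM in SynCre- libraries. Rtn4rl1, Lingo1, Lingo2 and Tnfrsf19 also overlap noncoding genes on the opposite strand, some of them among the counted genes, and these were not analysed here. For Rtn4rl2 the reference annotation lists a long noncoding RNA on the opposite strand, Gm74614, which is not among the counted genes. The nearest protein-coding gene, Slc43a1, an amino acid transporter 3330 bases away, was at 2.04 ± 0.175 CPM in SynCre+ and 1.42 ± 0.513 CPM in SynCre- libraries. On the other side Slc43a3, a purine transporter 49474 bases away, was at 3.79 ± 0.622 CPM in SynCre+ and 3.65 ± 1.65 CPM in SynCre- libraries. For both neighbours the ranges of the genotypes overlapped.

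The genes whose levels followed Rtn4rl2 most closely over the 7 libraries were taken from 14351 genes by the Pearson correlation of log2 CPM. They were Usp13, a deubiquitinase (r = 0.991), Serp2, a protein of the endoplasmic reticulum (0.989), Etv1, a transcription factor of the ETS family (0.988), Camk2g, a subunit of the calcium/calmodulin kinase II (0.980), and Ccsap, a protein of centrioles and spindles (0.978). Usp13 was at 7.13 to 9.47 CPM in SynCre+ and at 11.2 to 16.3 CPM in SynCre- libraries. Camk2g was at 70.6 to 80.0 CPM in SynCre+ and at 86.2 to 103 CPM in SynCre- libraries. All 5 share with Rtn4rl2 the separation of the genotypes, and the points share library and depth, so that the coefficients are a description over 7 libraries only.

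The wider pathway was followed with 31 further genes listed by their known roles. edgeR called none of them at an adjusted p of 0.05 (12 at an unadjusted p under 0.05, 8 lower and 4 higher), and limma-voom called none. These 12 of 31 genes stand beside 20% of all tested genes. DESeq2 called 7 lower and 3 higher, beside 5.48% lower and 6.7% higher over all genes with an adjusted p. The median log2 fold change was -0.15 against -0.04 over all tested genes, with 18 negative values. By role, and beside the same background of 5.48%, DESeq2 called lower 4 of 6 ligands and binding partners (median -0.84), 1 of 9 other receptors (0.15), 1 of 6 reticulon and LINGO homologs (-0.61) and 1 of 10 genes downstream of the receptors (0.06). All 3 genes called higher were downstream genes. Because the list was drawn up with earlier results of these data known, these counts are a description and nothing is read from them.

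Among the binding partners, the adhesion G protein-coupled receptors of the BAI family, which bind Nogo receptors across synapses, were all called lower by DESeq2. Adgrb1 was at 104, 117 and 139 CPM in SynCre+ and at 276, 296, 298 and 164 CPM in SynCre- neurons. Its log2 fold change was -1.11 ± 0.22 (SE), with an adjusted p of 0.000214 in DESeq2 and 0.0939 in edgeR. Adgrb2 was at 66.9, 88.4 and 113 CPM in SynCre+ and at 222, 196, 200.2 and 132 CPM in SynCre- neurons, with a log2 fold change of -1.07 ± 0.22 (SE) and an adjusted p of 0.000517 in DESeq2. Neither gene overlapped between the genotypes. Adgrb3 had a log2 fold change of -0.86 ± 0.25 (SE). Olfm1, a secreted ligand of the Nogo receptor, was called lower as well, at -0.82 ± 0.29 (SE).

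Ptprs is a receptor phosphatase for chondroitin sulfate proteoglycans and thus shares a ligand with NgR1 and NgR3. It was at 536, 609.6 and 793 CPM in SynCre+ and at 998, 1054, 1079 and 907 CPM in SynCre- neurons, without overlap, and its log2 fold change of -0.64 ± 0.16 (SE) had an adjusted p of 0.00253 in DESeq2 and 0.0988 in edgeR. Rtn2, a reticulon that shapes the endoplasmic reticulum, was at 31.3, 28.9 and 43.5 CPM in SynCre+ and at 53.1, 50.7, 56.9 and 47.8 CPM in SynCre- neurons. It had a log2 fold change of -0.59 ± 0.15 (SE) with an adjusted p of 0.0136 in DESeq2. Ngfr, the p75 receptor whose place TROY can take, was not called by either tool, with 1.84, 10.7 and 7.94 CPM in SynCre+ and 6.10, 4.90, 4.75 and 8.86 CPM in SynCre- neurons.

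Downstream of the receptors, DESeq2 called 3 genes of the RhoA branch higher. Rhoa, the GTPase itself, was at 424, 369.5 and 372 CPM in SynCre+ and at 277, 235, 265 and 316 CPM in SynCre- libraries, with a log2 fold change of 0.51 ± 0.12 (SE) and an adjusted p of 0.00637 in DESeq2. Arhgef12, an exchange factor that activates RhoA, had 338, 315 and 306 CPM in SynCre+ and 229, 232, 215 and 257 CPM in SynCre- libraries. Its log2 fold change was 0.45 ± 0.10 (SE), with an adjusted p of 0.00179 in DESeq2. Rock1, a kinase activated by RhoA, had 0.38 ± 0.11 (SE) and an adjusted p of 0.0494 in DESeq2 and 0.135 in edgeR. Kalrn, an exchange factor enriched in neurons, was called lower, at -0.59 ± 0.19 (SE). The summed endothelial markers were also higher in all SynCre+ libraries, and their part in these values was not tested apart from the fits with a covariate. With the neuron or the endothelial marker level as a covariate, DESeq2 called none of the 10 genes, while it still called 4 of the 10 without SynCre+ replicate 1 or SynCre- replicate 3, 5 without SynCre- replicate 2 and 6 without SynCre- replicate 1. Adgrb1, Adgrb2, Ptprs and Arhgef12 were called whichever single library was left out.

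**Figure D5:**
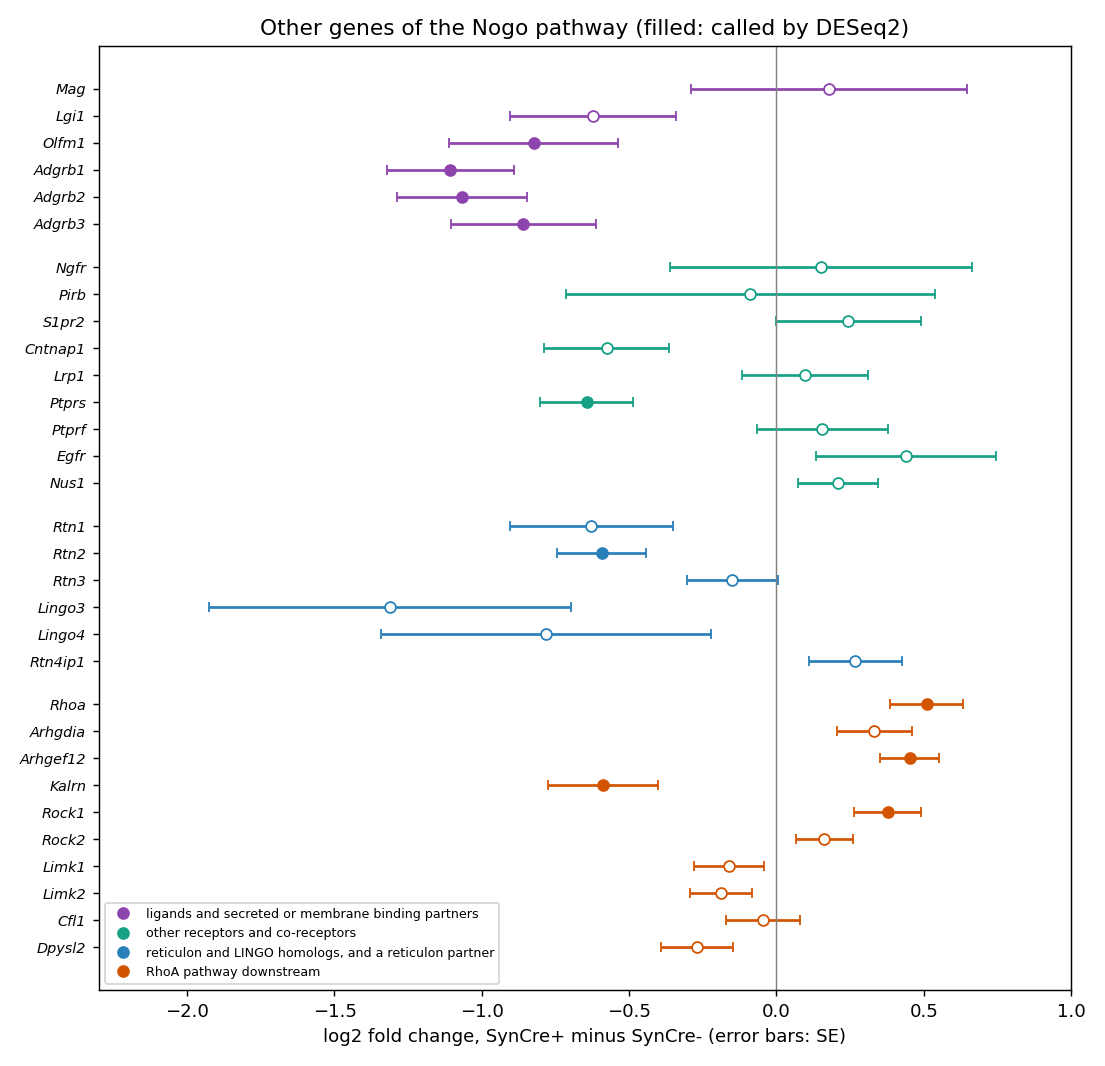
Fitted log2 fold change, SynCre+ minus SynCre- (horizontal axis, bars show SE), of the 31 further genes of the pathway, coloured by role. Filled points mark the 10 genes called by DESeq2, 7 to the left of 0 and 3 to the right, and edgeR called none.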

How the data were processed

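Poly(A) RNA of neurons isolated from whole brain was sequenced in 7 libraries, 3 SynCre+ and 4 SynCre-, 1 per animal as far as the study states. The p-values thus rest on the spread between animals of the same genotype. The study calls the animals littermates, but which libraries share a litter is not stated. The authors used fastp for trimming, FastQC for quality, STAR for alignment to GRCm39, SAMtools for removal of poor alignments, StringTie for counting and DESeq2 for testing. For versions, annotation release and strand setting, nothing is stated in the sources used here. The deposited values used are whole-number counts per gene, with 46382 lines per library and totals of 68213223 to 94376841. A deposited normalized version of the counts was not used. Of the lines, 49 repeats with identical counts were dropped.

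Genes were filtered with filterByExpr, scaled by TMM factors and tested by quasi-likelihood in edgeR 4.0.16 (R 4.3.3), with genotype as the only term and Benjamini-Hochberg adjustment over all 21542 genes tested (threshold 0.05). DESeq2 1.42.0 and limma-voom (limma 3.58.1) were the other tests. Fold changes are on the log2 scale and come from edgeR, also where an adjusted p of DESeq2 stands beside them. Their SE is the size of the fold change divided by the square root of the F statistic. log2 CPM used a prior count of 2. Lengths are the union of annotated exons in the GENCODE annotation of the same build. The edgeR and DESeq2 fits with genotype as the only term were also run on simulated data, and the other fits were not. The alternatives were other scaling, other filters, a replicate block, a marker level as covariate and leaving out each library. Some DESeq2 alternatives were added after the data were examined.

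The members, the 31 pathway genes and the 11 marker lists were chosen with earlier results of these data known. Named were the 8 members, the pathway genes past the threshold in edgeR or DESeq2 (at most 4 in each direction by p), Il4ra, the 5 genes most correlated with Rtn4rl2 (without predicted genes and those under a mean CPM of 1) and overlapping or neighbouring genes. Adgrb3, Olfm1 and Kalrn exceed the limit of 4, and they, Mag and Ngfr were named after their values were seen.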

Additional observations from a re-analysis of the deposited data

Results flagged for a closer look

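Adgrb1 was at 164.0 CPM in SynCre- replicate 4, against 276 to 298 CPM in the other 3 SynCre- libraries, a gap of 0.836 of the range of the group, which is above Dixon's 95% critical value for 4 samples. Chance gives such a gap in about 1 of 20 groups, and 1 of the 19 genes looked at showed it. The endothelial markers of this library had the highest sum among the SynCre- libraries, 12839 CPM, and their part in the value was not tested.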

How the results depend on the processing

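Under 15 alternatives, 13 fold changes of each member moved by less than the spread between libraries. Those that moved further were the fits with a marker level. With the endothelial level the log2 fold changes were 0.17 for Rtn4, 0.53 for Rtn4r, 0.85 for Rtn4rl1, -1.10 for Rtn4rl2, 0.44 for Lingo1, 0.083 for Lingo2, 0.15 for Tnfrsf19 and 1.06 for Omg. With the neuron level they were 0.12 for Rtn4, 0.28 for Rtn4r, 0.60 for Rtn4rl1, -1.25 for Rtn4rl2, 0.12 for Lingo1, -0.0014 for Lingo2, 0.28 for Tnfrsf19 and 0.89 for Omg. The cause was not tested. Leaving out 1 library gave -0.29 to -0.07 for Rtn4, -1.30 to -0.54 for Rtn4r, -0.33 to 0.18 for Rtn4rl1, -2.38 to -1.64 for Rtn4rl2, -1.80 to -0.92 for Lingo1, -1.17 to -0.48 for Lingo2, 0.42 to 0.64 for Tnfrsf19 and -0.87 to 0.00 for Omg. Members without overlap stayed 3 lower and 1 higher under other scaling. At a given scaling, leaving out a library can keep or add a separation but cannot remove one. The same counts without 1 library are therefore no check of these separations, and leaving out SynCre- replicate 3 added Lingo2 (4 lower). edgeR and limma-voom called 0 genes and DESeq2 1990, of which 10 were pathway genes. Without 1 library edgeR called 0 to 5 genes (5 without SynCre+ replicate 1). The DESeq2 alternatives were added after the data were examined. DESeq2 called 895 genes lower and 1095 higher, against 1773 lower and 525 higher with library totals, which moved the median log2 fold change of all genes to -0.16. With the endothelial level it called 56 lower and 128 higher, with the neuron level 219 lower and 300 higher, and without 1 library 348 to 1318 lower and 407 to 1163 higher. Among pathway genes it called 7 lower and 3 higher, against 0 lower and 0 higher with the endothelial level, 0 lower and 2 higher with the neuron level (0 of the original 10 with either), and 3 to 9 lower and 1 to 3 higher without 1 library. The first 5 genes by Spearman correlation all had a coefficient of 1, a tie that was ordered by name. Only 1 of the 5 genes most like Rtn4rl2 by Pearson correlation, Camk2g, was among them. Etv1 and Serp2 also ranked the libraries in the order of Rtn4rl2, so this count depends on the names and does not compare the measures.

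The replicate numbers are shared between genotypes, but libraries of the same number did not deviate together (correlations of -0.03, -0.00 and 0.09). With a replicate block, the log2 fold changes were -0.25 for Rtn4, -1.24 for Rtn4r, -0.21 for Rtn4rl1, -2.12 for Rtn4rl2, -1.69 for Lingo1, -0.92 for Lingo2, 0.62 for Tnfrsf19 and -0.71 for Omg. edgeR called 0 genes with the block, and DESeq2 called 778 lower and 765 higher.

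The lowest count of a member in any library was 136, for Lingo2, so that counting error was small beside the spread between libraries. The number of libraries and the marker levels of the cell types, several of which moved with the genotype, limit what these fold changes can show.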
